A study of Homo sapiens with 23 samples.

Results

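The difference between the siRNA effect and the mean shRNA effect of THUMPD3 depletion was computed for every gene in A549 cells, a human lung adenocarcinoma line. For each gene, the log2 change of siTHUMPD3 over siControl was reduced by the mean of the log2 changes of shD3#1 over sh1Control and of shD3#4 over sh4Control. It used 17 of the 23 libraries of the series, namely 2 of siControl and 3 each of siTHUMPD3, sh1Control, shD3#1, sh4Control and shD3#4. The other 6 libraries, a deeper set of sh1Control and shD3#1, took no part in the difference and served as a separate look at 1 of the shRNAs. A positive difference means that the siRNA effect lay above the mean shRNA effect, whether the siRNA raised the gene or the shRNAs lowered it. Of 61806 genes listed, 18672 had enough counts to be tested.

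All groups were A549 cells with THUMPD3 as the target. siTHUMPD3 cells were transfected with 1 siRNA (siD3 #3) and siControl cells with a control siRNA, and both were harvested on day 5. shD3#1 and shD3#4 cells carried a pLKO-Tet-On construct, selected with puromycin, from which doxycycline induces the hairpin, and were harvested on day 6. Their controls, sh1Control and sh4Control, are called untreated in the study's methods. The route of delivery, the sequence of the single siRNA, the day of harvest, doxycycline and the depth of the knockdown therefore changed together and cannot be told apart in the difference. Replicates carry biological replicate numbers in the labels, and p-values measure the spread between these libraries.

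THUMPD3 is a methyltransferase that, with its partner TRMT112, places N2-methylguanosine in tRNA. A transfected siRNA is loaded straight into the RNA-induced silencing complex, whereas a hairpin is transcribed from an integrated vector and cut by Dicer first. Either reagent can also silence other transcripts through partial matches, and double-stranded RNA can be sensed by innate receptors that raise interferon-stimulated genes. When cells leave the cycle, p53 and its target p21 keep the E2F and DREAM sites of replication and mitosis genes repressed, which is why such genes often move together.

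The libraries held 9854294 to 22101059 counts, the shallowest being shD3#1 replicate 3. Replicate 3 of siTHUMPD3 stood apart from its group, with a root mean square log2 difference of 0.346 and 0.348 from the other 2 libraries, which differed from each other by 0.188. The pair of siControl libraries differed by 0.264, replicate 3 of shD3#1 by 0.273 and 0.286 from its group, and all other replicate pairs by 0.177 to 0.206. The epithelial markers EPCAM, KRT8, KRT18, KRT19 and CDH1 were detected in all 17 libraries, KRT8 at 1258 to 2841 cpm (counts scaled to an equal library total, the usual unit of expression level that ignores gene length). Markers of other cell types were low. The 4 leukocyte markers summed to 1.58 to 2.69 cpm in siTHUMPD3, 1.34 to 2.20 cpm in shD3#1 and at most 0.685 cpm elsewhere, with CD3E at 0 in all 17 libraries. The 3 endothelial markers summed to 0.864 to 1.58 cpm in siTHUMPD3 and 0.850 to 1.54 cpm in shD3#4, against 0.142 to 0.224 cpm in siControl and 0.204 to 0.964 cpm elsewhere, with VWF at 0 in 10 libraries. The 4 fibroblast markers, nearly all of it COL1A1, summed to 4.50 to 5.84 cpm in siTHUMPD3 against 2.51 to 3.62 cpm in siControl and 3.11 to 8.36 cpm elsewhere, with DCN at 0 in 13 libraries. The part of such cells in the results was not tested. In bulk RNA, fewer cells in a phase or state and less RNA per cell cannot be told apart.

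THUMPD3 mRNA was lowered further by the siRNA than by either shRNA. It stood at 67.5 and 70.3 cpm in siControl and at 11.8, 12.8 and 10.7 cpm in siTHUMPD3, so that 17.1% was left. shD3#1 took it from 60.7, 58.3 and 61.4 cpm to 29.9, 29.6 and 31.8 cpm (50.5% left), and shD3#4 from 66.7, 65.4 and 59.1 cpm to 20.2, 19.98 and 19.1 cpm (31.0% left). All siTHUMPD3 libraries were below every shRNA library, and all knockdown libraries below every control. On the log2 scale the siRNA effect was -2.55, the shD3#1 effect -0.99 and the shD3#4 effect -1.69, and the siRNA minus mean shRNA difference was -1.21 (SE 0.10, edgeR quasi-likelihood test with Benjamini-Hochberg adjustment, adjusted p = 3.98e-09). The other m2G methyltransferase genes THUMPD2 and TRMT11 had differences of -0.12 and 0.02, which did not pass the test. TRMT112 had a difference of -0.39 (adjusted p = 2.50e-02), smaller in size than the 1.5-fold threshold set here. THUMPD3-AS1, the antisense neighbour of the target, had a difference of 0.14 that did not pass, and with the strand setting of the counting unknown its reads cannot be separated from those of THUMPD3.

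A gene was called when its adjusted p was below 0.05 and its difference at least 1.5-fold in size. The siRNA effect was above the mean shRNA effect for 1760 genes (9.43%) and below it for 1329 genes (7.12%). Set against shD3#1 alone, 2542 genes (13.6%) were higher and 2192 (11.7%) lower, and against shD3#4 alone 1726 (9.24%) and 1598 (8.56%). The 3 knockdowns by themselves called 2725 genes higher (14.6%) and 1882 lower (10.1%) with the siRNA, 2445 (13.1%) and 2653 (14.2%) with shD3#1, and 1221 (6.54%) and 774 (4.15%) with shD3#4. The median difference over all genes tested was 0.03.

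The called differences came about in several ways. Of the 1760 higher genes, 1281 were called higher with the siRNA itself, 418 of these also with at least 1 shRNA in the same direction, while 476 were not called with the siRNA at all. Of those 476, 352 had been lowered by at least 1 shRNA, so a fall with an shRNA made up at least part of the difference there. CANX, the ER chaperone calnexin, is one such case: its level fell from 2356, 2319 and 2166 cpm to 434, 425 and 417 cpm with shD3#1, while siControl held 2085 and 1805 cpm and siTHUMPD3 1569, 1569 and 1548 cpm. Its difference was 1.00 (SE 0.09, adjusted p = 3.84e-08) with a siRNA effect of -0.32, below the threshold. Of the 1329 lower genes, 972 were called lower with the siRNA, 462 of them also with at least 1 shRNA, and 112 with both. When the shRNAs were taken singly, 699 of the higher and 745 of the lower genes differed from each of them, and 12 called genes lay above 1 shRNA effect and below the other.

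**Figure D1:**
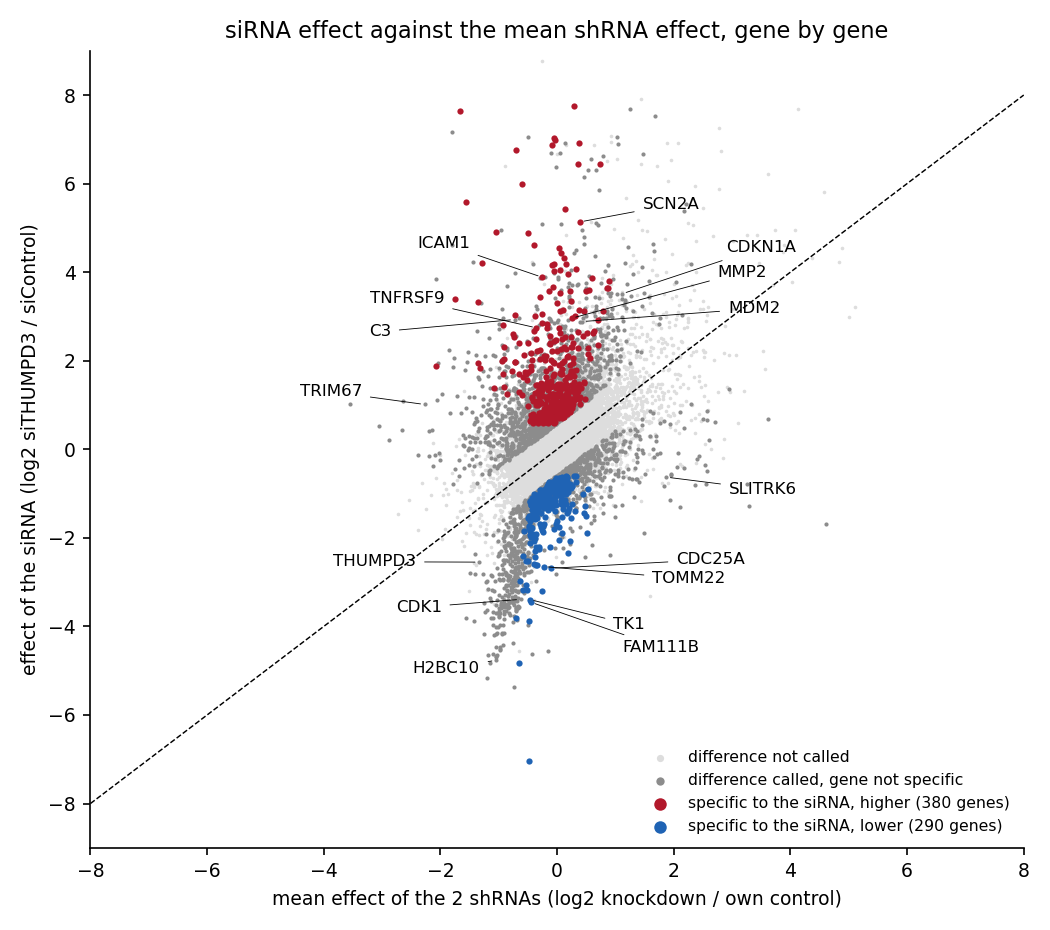
Effect of the siRNA on the log2 scale (y axis) against the mean effect of the 2 shRNAs (x axis) for each of the 18672 genes tested, with equal effects on the dashed line. The mitosis gene CDK1 and the histone gene H2BC10 lie far below the line, at shRNA effects that are negative themselves, and the 380 and 290 genes specific to the siRNA lie near an shRNA effect of 0.

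To set the siRNA route apart, a gene was named specific to the siRNA when it was called against the mean shRNA effect and against each shRNA in the same direction, was called with the siRNA in that direction, and was called with neither shRNA. This left 380 higher genes (2.04% of those tested), 321 of them protein-coding, and 290 lower genes (1.55%), 252 of them protein-coding. Their median siRNA effects were 1.35 and -1.12, and their median shRNA effects lay between -0.04 and -0.01 for the higher and between -0.20 and -0.13 for the lower genes. These values follow from the rule and are a description. Specific members of the lists below are to be read against the 2.04% and 1.55% of all genes tested. The smallest differences inside the thresholds were 0.61 and 0.60 in size. An shRNA effect could be significant and still count as not called when it was smaller than 1.5-fold. For 303 of the higher genes (79.7%) all 3 siTHUMPD3 libraries were above all 14 other libraries, and for 263 of the lower genes (90.7%) all 3 were below them. Over all genes tested these shares were 9.59% and 9.24%. siControl and the shRNA controls also differed in 47 of the 380 higher genes, where siControl was lower, and in 7 of the 290 lower genes, where it was higher, and in these the difference was set in part by the control cells. The gap between siTHUMPD3 and the mean of the shRNA knockdowns was called in the same direction in 324 of the 380 and 236 of the 290, and not in the rest. Without siTHUMPD3 replicate 3, 284 of the 380 and 263 of the 290 genes stayed specific, and 342 and 347 genes in all met the rule.

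The promoters of 5 genes that stand for the main groups are printed from the RefSeq GRCh38.p14 table, from 250 bases before to 50 bases after the transcription start (position 251). Capitals mark the words named on each line, out of those searched for on both strands. The words were TTCCCGC and TTGGCGC, as in E2F sites, TTTGAA and TTTAAA, as in the CHR element bound by DREAM and B-MYB complexes, and GGANNTTCC, as in NF-kB sites. CDC25A and MCM6 are lower replication genes specific to the siRNA with E2F words, CCNB1 is a mitosis gene with a CHR word, and ICAM1 and TNFRSF9 are higher genes specific to the siRNA with NF-kB words.
CDC25A, chr3:48188368-48188667, minus strand, E2F words that overlap at 208 and 211: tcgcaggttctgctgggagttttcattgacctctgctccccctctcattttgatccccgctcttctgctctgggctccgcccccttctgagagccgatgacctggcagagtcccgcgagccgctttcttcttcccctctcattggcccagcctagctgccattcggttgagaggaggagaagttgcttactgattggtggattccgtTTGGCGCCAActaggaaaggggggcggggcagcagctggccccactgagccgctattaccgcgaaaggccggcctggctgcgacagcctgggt
MCM6, chr2:135876394-135876693, minus strand, E2F words at 100 and 162: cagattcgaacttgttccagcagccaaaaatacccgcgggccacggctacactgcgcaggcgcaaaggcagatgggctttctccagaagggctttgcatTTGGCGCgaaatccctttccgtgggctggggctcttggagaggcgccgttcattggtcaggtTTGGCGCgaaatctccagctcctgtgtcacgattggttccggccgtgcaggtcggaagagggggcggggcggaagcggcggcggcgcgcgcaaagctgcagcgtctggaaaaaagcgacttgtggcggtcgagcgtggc
CCNB1, chr5:69166900-69167199, plus strand, CHR word at 221: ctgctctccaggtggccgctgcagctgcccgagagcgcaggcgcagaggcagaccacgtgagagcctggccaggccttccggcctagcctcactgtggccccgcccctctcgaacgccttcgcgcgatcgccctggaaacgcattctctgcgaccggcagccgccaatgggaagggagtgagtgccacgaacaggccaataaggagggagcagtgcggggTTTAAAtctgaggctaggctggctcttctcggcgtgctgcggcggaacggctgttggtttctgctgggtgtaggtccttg
ICAM1, chr19:10270870-10271169, plus strand, NF-kB word at 65: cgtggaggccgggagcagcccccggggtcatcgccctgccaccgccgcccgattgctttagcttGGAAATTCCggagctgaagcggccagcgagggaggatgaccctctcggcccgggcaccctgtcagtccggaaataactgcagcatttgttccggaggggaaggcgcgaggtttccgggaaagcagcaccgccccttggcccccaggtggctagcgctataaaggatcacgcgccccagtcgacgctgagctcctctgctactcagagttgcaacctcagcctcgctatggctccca
TNFRSF9, chr1:7940790-7941089, minus strand, NF-kB word at 178: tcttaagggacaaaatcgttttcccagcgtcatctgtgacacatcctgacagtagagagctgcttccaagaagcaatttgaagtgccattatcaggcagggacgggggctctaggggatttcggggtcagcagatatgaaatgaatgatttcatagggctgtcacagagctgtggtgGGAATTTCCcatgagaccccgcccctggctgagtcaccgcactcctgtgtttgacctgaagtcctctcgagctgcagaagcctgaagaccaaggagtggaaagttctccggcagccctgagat

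The 3 lists with the largest share of called members were lower with the siRNA and belonged to the cell cycle. Of 96 mitosis genes (kinetochore, spindle and cytokinesis), 92 (95.8%) had a lower siRNA effect and 0 a higher one, against 7.12% lower over all genes. Their median difference was -2.38, made of a median siRNA effect of -3.19 against -1.05 with shD3#1 and -0.52 with shD3#4. In 94 of the 96 the siTHUMPD3 libraries were below all other libraries. The shRNAs lowered many of the same members, 90 of 96 with shD3#1 and 35 with shD3#4, so that 1 member, NUSAP1, met the rule of specificity. In the deep libraries shD3#1 lowered fewer of them, 31 of 95. NUSAP1 was counted at only 0.909 to 1.29 cpm in control libraries, whereas the deep sh1Control libraries held 92.6 to 101 cpm, and its value here is therefore uncertain. Its difference of -1.84 became -2.58 without siTHUMPD3 replicate 2 and lost the call without siControl replicate 1. Without siTHUMPD3 replicate 3 the median difference was -2.76.

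CCNB1, the cyclin that drives entry into mitosis, was at 203 and 220 cpm in siControl and at 23.8, 20.96 and 31.3 cpm in siTHUMPD3. It went from 183, 187 and 188 to 94.1, 99.1 and 112 cpm with shD3#1 and from 230, 209 and 202 to 131, 121 and 118 cpm with shD3#4. Each knockdown was below its control without overlap, and siTHUMPD3 was below both shRNAs, with a difference of -2.22 (SE 0.13, adjusted p = 1.15e-10). Its partner kinase CDK1 kept 9.55% of its level with the siRNA, 50.4% with shD3#1 and 83.6% with shD3#4 (difference -2.76, SE 0.17). NDC80, a kinetochore subunit that binds microtubules, fell from 23.7 and 23.8 cpm to 0.773, 0.820 and 1.78 cpm with the siRNA. Its difference of -3.62 (SE 0.20) compared with shRNA effects of -1.24 (shD3#1) and -0.29 (shD3#4, not called).

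Replication-dependent histone genes, which are expressed in S phase, were lower in 43 of 48 (89.6%), with a median difference of -2.86. By themselves, shD3#1 lowered 45 of the 48 and shD3#4 lowered 18, and the deep shD3#1 libraries lowered 42. H2BC10 stood at 79.4 and 90.5 cpm in siControl and at 3.24, 2.69 and 3.36 cpm in siTHUMPD3, against 22.3, 24.1 and 29.5 cpm in shD3#1 and 41.6, 48.3 and 48.5 cpm in shD3#4. The order was the same in every library, with siTHUMPD3 lowest, shD3#1 next, then shD3#4 and the controls. Its difference was -3.72 (SE 0.16, adjusted p = 1.55e-12). Histone genes have near-identical copies, so reads may be split among them and single members are uncertain.

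DNA replication and nucleotide supply gave 59 lower and 0 higher of 68 genes (86.8%), with a median difference of -1.55. The shRNAs lowered members of this list too, 39 of 68 with shD3#1 and 19 with shD3#4. Median effects were -2.13 with the siRNA, -0.64 with shD3#1 and -0.46 with shD3#4. In the deep libraries shD3#1 lowered 14 of 68. Here 11 members were specific to the siRNA, against 1 of the mitosis list and 0 of the histones. They were TK1 (thymidine kinase, difference -2.93), CDC25A (the phosphatase that activates CDK2, -2.59), CCNE2 (cyclin E2, -2.08), MCM6 (a subunit of the replicative helicase, -1.93), POLA2 (a DNA polymerase alpha subunit, -1.64), DBF4 (activator of the CDC7 kinase, -1.48), RFC2 (clamp loader, -1.31), GINS3 (-1.14), GMNN (geminin, the inhibitor of CDT1, -1.13), RPA2 (single-strand binding protein, -0.83) and ORC2 (origin recognition, -0.67). None of the 11 was called with either shRNA, as the rule requires. POLA2 was at 5.62 to 8.40 cpm in the control libraries here but at 48.0 to 48.9 cpm in the deep sh1Control libraries, so its value is uncertain, as for NUSAP1.

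TK1 was at 74.9 and 79.5 cpm in siControl and 5.17, 5.68 and 11.1 cpm in siTHUMPD3. With the shRNAs it went from 61.4, 63.5 and 67.9 to 44.2, 47.9 and 52.3 cpm (shD3#1) and from 78.4, 75.1 and 70.9 to 52.5, 50.4 and 54.2 cpm (shD3#4). The shRNA libraries lay below their controls without overlap but far above siTHUMPD3, with 74.7% and 69.98% left against 9.52% with the siRNA (difference -2.93, SE 0.20, adjusted p = 3.65e-10). CDC25A was at 29.3 and 23.4 cpm in siControl and 3.04, 3.63 and 5.60 cpm in siTHUMPD3, while every other library held 16.6 to 22.8 cpm. The shD3#1 libraries at 19.7, 19.8 and 19.4 cpm were not below sh1Control at 18.9, 18.6 and 18.9 cpm, and the difference was -2.59 (SE 0.18, adjusted p = 5.54e-10). MCM6 was at 60.7 and 54.0 cpm in siControl, at 8.41, 11.1 and 15.4 cpm in siTHUMPD3, and at 34.8 to 56.4 cpm elsewhere. Its difference was -1.93 (SE 0.17, adjusted p = 3.15e-08), with 20.2% left under the siRNA and 79.4% and 74.6% under the shRNAs.

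Among the 10 lowest protein-coding genes specific to the siRNA were further genes of S phase. FAM111B, a protease of replicating cells, went from 48.2 and 36.5 cpm to 3.33, 2.23 and 5.90 cpm with the siRNA, while the shRNA knockdowns held 31.8 to 41.8 cpm (difference -3.01, SE 0.23). TCF19 (-2.95) and WDR76 (-2.67), the latter at 43.6 and 39.9 cpm in siControl and 3.87, 4.22 and 5.75 cpm in siTHUMPD3, followed. TOMM22, a receptor of the mitochondrial import pore and no cell cycle gene, fell from 54.2 and 60.7 cpm to 9.33, 10.0 and 8.14 cpm with the siRNA. shD3#1 held 35.4, 34.3 and 43.0 cpm against 36.4, 33.3 and 38.7 cpm in its control, and the difference was -2.42 (SE 0.13, adjusted p = 1.70e-11). siControl was itself above the shRNA controls for TOMM22 by 0.49 (log2), and siTHUMPD3 was below the shRNA knockdowns by 1.93. The rest were NES (nestin, -2.28), NRGN (neurogranin, -2.24, or -2.87 without siTHUMPD3 replicate 3) and MYB (-2.19, not called without siControl replicate 1), all at under 5 cpm in siControl, besides TK1, CDC25A and CCNE2. Of the 10, TK1, CDC25A, CCNE2, FAM111B, TCF19, WDR76 and TOMM22 met the rule in all 24 alternative settings, NES in 15 and MYB in 20. None of these 24 settings raised the fold threshold or tested against it.

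Repair by homologous recombination and the Fanconi pathway was lower in 29 of 41 genes (70.7%) and higher in 0, with 5 specific members. By itself, shD3#1 also lowered 29 of the 41, and shD3#4 lowered 3. HELLS, a chromatin remodeller, was at 132 and 141 cpm in siControl and 24.1, 23.4 and 37.9 cpm in siTHUMPD3, against 117 to 155 cpm in the shRNA knockdowns (difference -1.95, SE 0.15). CHEK1, the checkpoint kinase, kept 25.8% with the siRNA and 74.0% and 72.7% with the shRNAs (-1.51, SE 0.13), and RAD54B (-1.54), FANCM (-1.20) and RBBP8 (-0.82) were the others. Of the nuclear lamina and HMGB genes 10 of 17 (58.8%) were lower and 0 higher. LMNB1, lamin B1, went from 117 and 118 cpm to 12.03, 11.6 and 21.6 cpm (difference -1.98, SE 0.18), but it also fell with shD3#1 (38.5% left) and shD3#4 (66.4% left). H2AZ1, a histone variant, was specific with 25.4% left under the siRNA (difference -1.53, SE 0.12).

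G1 regulators did not move as 1 group, with 2 higher (8.33%) and 7 lower (29.2%) of 24. CDK2 was specific, at 59.8 and 65.0 cpm in siControl and 13.1, 14.5 and 17.1 cpm in siTHUMPD3 against 36.6 to 42.7 cpm in the shRNA knockdowns (difference -1.67, SE 0.11). TFDP1, the dimer partner of E2F, and LIN52, of the DREAM complex, were also specific (-0.84 and -0.66), 3 in all, or 5 without sh4Control replicate 1. RBL1 was lower (-1.75) but fell with shD3#1 as well. CDK6 (1.15) and CCND1 (0.74), the kinase and cyclin of early G1, were higher. CDK6 was at 162 and 201 cpm in siControl and 266, 238 and 368 cpm in siTHUMPD3, and fell with shD3#4.

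p53 targets were the higher group nearest to the cell cycle. The siRNA effect was above the mean shRNA effect in 39 of 54 targets (72.2%) and below it in 0, against 9.43% higher over all genes, with a median difference of 0.98. The median effects were 1.32 with the siRNA, 0.76 with shD3#1 and 0.02 with shD3#4, so 37 members rose with shD3#1, 7 with shD3#4 and 47 with the siRNA. CDKN1A, which encodes the CDK inhibitor p21, was at 65.8 and 71.4 cpm in siControl and 857, 815 and 674 cpm in siTHUMPD3, an 11.4-fold increase. It went from 46.6, 46.2 and 51.2 to 194, 182 and 222 cpm with shD3#1 and from 53.3, 52.8 and 51.6 to 60.9, 56.6 and 61.1 cpm with shD3#4. The 3 knockdowns did not overlap, and the difference was 2.40 (SE 0.12, adjusted p = 1.70e-11). MDM2, the ubiquitin ligase of p53, was at 134 and 138 cpm in siControl and 1058, 1048 and 904 cpm in siTHUMPD3 (difference 2.46, SE 0.10), with 220 to 241 cpm in shD3#1 and 138 to 153 cpm in shD3#4.

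Specific to the siRNA were 5 p53 targets, namely ALOX5 (arachidonate 5-lipoxygenase, 3.05), TP53I3 (a quinone oxidoreductase, 2.13), CYFIP2 (1.46), DRAM1 (a lysosomal autophagy regulator, 1.13) and XPC (damage recognition, 0.80). TP53I3 was at 52.7 and 60.7 cpm in siControl and 302, 302 and 216 cpm in siTHUMPD3, while all 12 shRNA and shRNA control libraries held 39.4 to 73.3 cpm. Its shD3#1 effect of 0.56 lay just under the threshold. ALOX5 was at 1.12 and 0.782 cpm in siControl and at 15.3, 15.7 and 4.48 cpm in siTHUMPD3, replicate 3 being the low one, and did not meet the rule without that library.

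**Figure D2:**
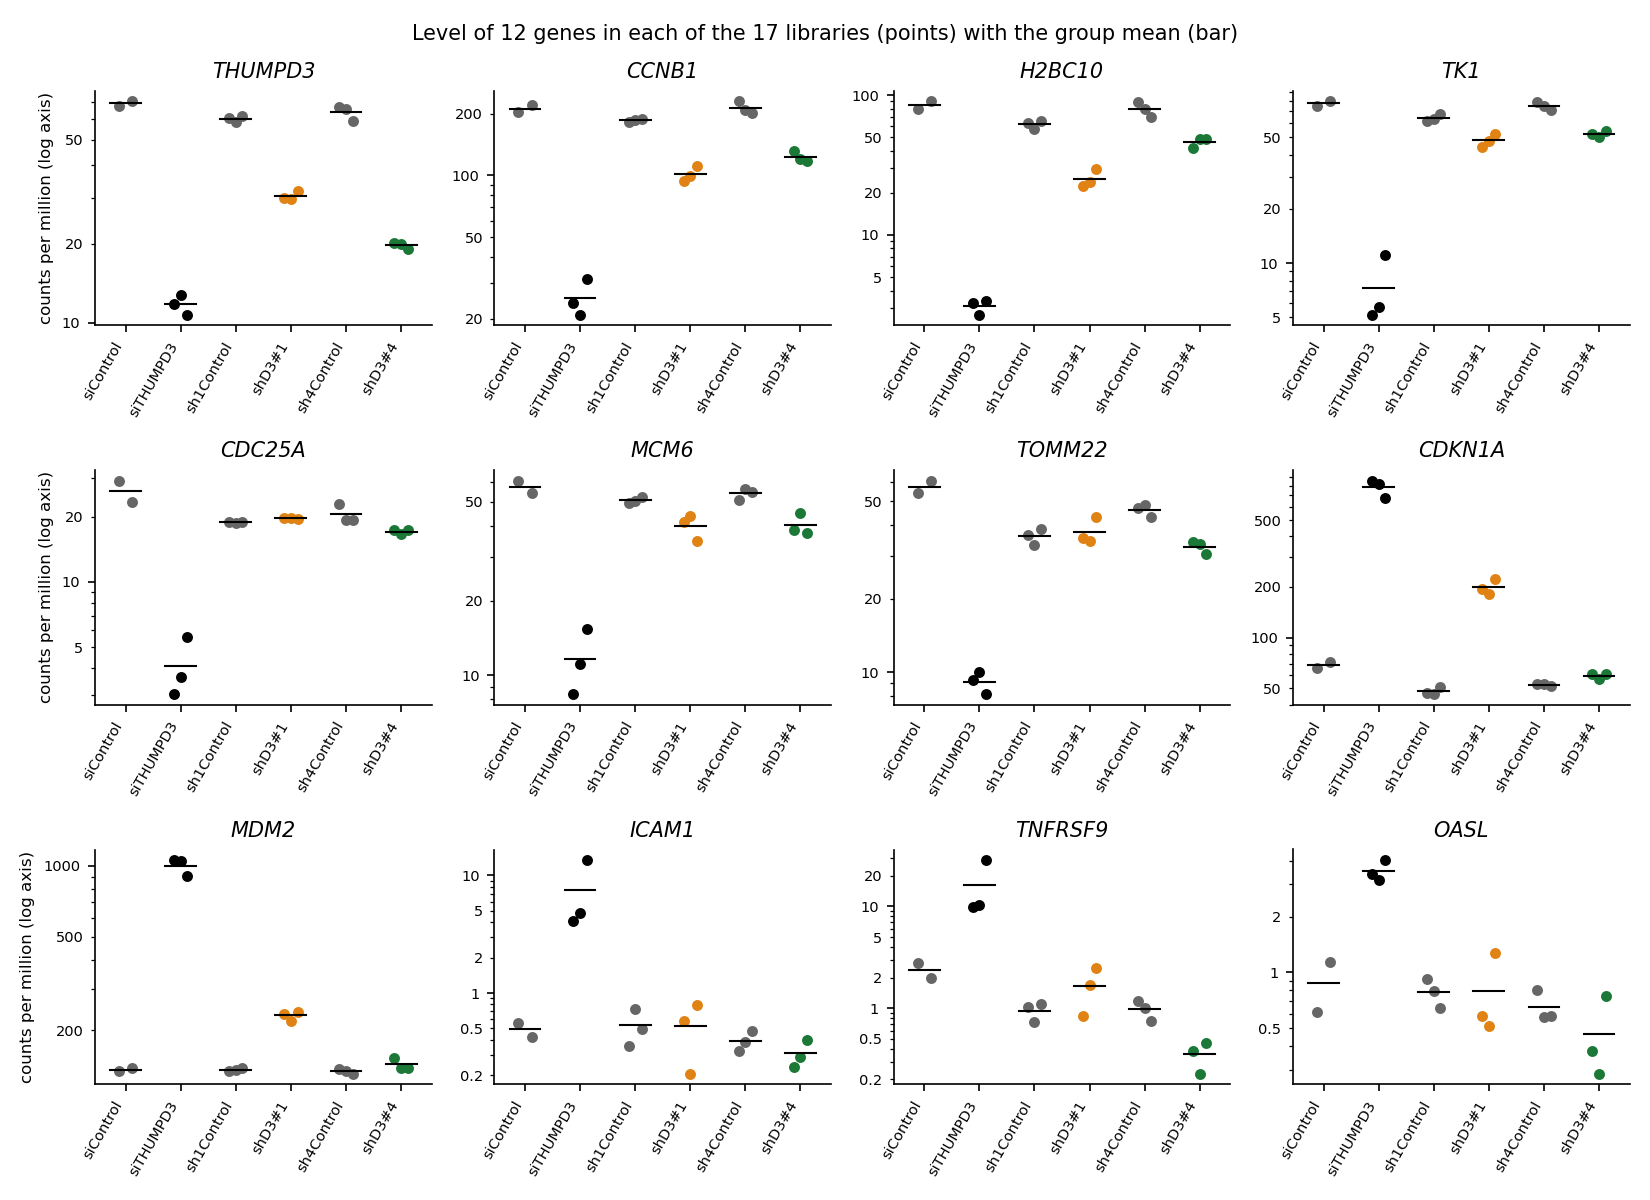
Level in cpm (log axis) of 12 genes in each library (points) with the group mean (bar), for the 6 groups of the difference. The 3 siTHUMPD3 libraries lie beyond all 14 others for THUMPD3, CCNB1, H2BC10, TK1, CDC25A, MCM6, TOMM22, CDKN1A, MDM2, ICAM1, TNFRSF9 and OASL, while shD3#1 is intermediate for CCNB1, H2BC10 and CDKN1A.

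Interferon-stimulated genes were higher in 30 of 62 (48.4%) and lower in 1, with a median difference of 0.73 (0.57 to 0.80 over the alternatives). Both shRNAs had small medians, 0.20 for shD3#1 and 0.21 for shD3#4, against 0.98 for the siRNA. By themselves, the siRNA raised 40 of the 62 and lowered 1, shD3#1 raised 15 and lowered 4, and shD3#4 raised 10 and lowered 1. Over all genes tested the raised shares were 14.6%, 13.1% and 6.54%. The deep shD3#1 libraries raised 12 of 56 and lowered 7, against 14.1% raised and 13.2% lowered over all genes of both tables. Specific to the siRNA were OASL (2.34), PARP10 (1.42), APOL1 (1.09), IRF1 (1.07), SAMD9 (0.98), IFIH1 (0.89), APOL6 (0.81), SP100 (0.75) and HERC6 (0.72), 9 in all and 15 without siTHUMPD3 replicate 3. HERC6 was no longer called without siControl replicate 2 (0.54) or siTHUMPD3 replicate 1 (0.56). OASL, an antiviral protein that binds double-stranded RNA, was at 0.615 and 1.14 cpm in siControl and 3.38, 3.16 and 4.02 cpm in siTHUMPD3, with at most 1.28 cpm in any other library (SE 0.44, adjusted p = 3.68e-04). IRF1, a transcription factor of the response, was at 19.6 and 17.5 cpm in siControl and 41.9, 40.7 and 50.6 cpm in siTHUMPD3, above the 16.1 to 20.3 cpm of the other libraries (SE 0.11, adjusted p = 2.98e-07). IFIH1 encodes MDA5, a sensor of long double-stranded RNA, and stood at 5.03 and 3.77 cpm in siControl and 8.94, 10.1 and 10.4 cpm in siTHUMPD3.

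MX1, a GTPase active against viruses, rose with the siRNA from 1.29 and 0.924 cpm to 16.9, 18.4 and 9.72 cpm, but also with shD3#1 from 1.38, 1.36 and 1.64 cpm to 4.09, 4.50 and 12.3 cpm. The groups overlap through siTHUMPD3 replicate 3 and shD3#1 replicate 3, with a difference of 2.53 (SE 0.54). IFIT1 had a difference of 1.73 and ISG15 of 1.13 (adjusted p = 4.90e-02), the latter lost when most single libraries were left out (adjusted p = 0.260 without siControl replicate 1). USP18, the negative regulator of the interferon receptor, was the 1 lower member (-0.64) and lost the call without siControl replicate 2, shD3#1 replicate 3 or siTHUMPD3 replicate 3. MHC class I presentation genes were higher in 8 of 21 (38.1%) and lower in 0. The peptide transporter TAP1 was specific, at 59.0 and 47.0 cpm in siControl and 106, 103 and 119 cpm in siTHUMPD3 (difference 0.90, SE 0.11). Of the 17 genes of the RNA interference machinery, edgeR called 0 higher and 0 lower in the difference, as did DESeq2 and voom, while 3 higher and 2 lower had an unadjusted p below 0.05, with DICER1 at 0.07 and AGO2 at -0.34.

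Cytokines, chemokines and NF-kB targets were higher in 22 of 40 (55.0%) and lower in 1, with a median difference of 1.04. The median was 0.76 to 1.34 over the alternatives. Their median effects were 1.07 with the siRNA, 0.30 with shD3#1 and -0.24 with shD3#4. The specific members were CCL5, IL23A (2.72, or 2.13 and 3.42 without siControl replicate 1 and 2), BIRC3 (1.53), TNFAIP2 (1.21) and NFKBIE (1.00), 5 in all and 3 without sh1Control replicate 1 or without siControl replicate 1. BIRC3, an inhibitor of apoptosis, was at 93.9 and 59.8 cpm in siControl and 158, 173 and 281 cpm in siTHUMPD3, and at 26.3 to 50.5 cpm in the shRNA and shRNA control libraries. siControl was above the shRNA controls by 1.00 (log2), and siTHUMPD3 above the shRNA knockdowns by 2.53 (difference 1.53, SE 0.23). The chemokine CCL5 had 0 and 1 counts in siControl, 24, 21 and 61 counts in siTHUMPD3 and 0 to 5 counts elsewhere, with 0 in all shD3#4 libraries, so no fold is given. CCL5 met the rule in 15 of 24 alternative settings. SAA1, an acute phase protein, had 0 counts in both siControl libraries and 14, 15 and 23 counts in siTHUMPD3, at least 9.69-fold higher against a floor of 3 counts over the siControl group.

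CXCL8 and CXCL1 show how the shRNAs part within this list. CXCL8, interleukin 8, was at 35.9 and 18.2 cpm in siControl and 95.5, 92.6 and 143 cpm in siTHUMPD3. It rose about as much with shD3#1, from 8.11, 9.54 and 11.4 to 39.1, 40.2 and 48.6 cpm, and fell with shD3#4, from 12.3, 10.7 and 11.5 to 5.25, 3.20 and 4.29 cpm. Its siRNA effect differed from shD3#4 (3.43) and not from shD3#1 (-0.12, SE 0.29). CXCL1 rose with the siRNA (0.84) and fell with shD3#1 (-1.49) and shD3#4 (-0.93), giving a difference of 2.05 (SE 0.13, adjusted p = 1.52e-10). The inhibitor NFKBIA had a difference of 0.39 that did not pass, and AREG, a growth factor, was the lower member (-1.01).

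Among the 10 highest protein-coding genes specific to the siRNA, ICAM1 and TNFRSF9 are textbook NF-kB targets. ICAM1, a leukocyte adhesion receptor whose promoter is printed above, was at 0.559 and 0.426 cpm in siControl and 4.11, 4.80 and 13.5 cpm in siTHUMPD3, against 0.207 to 0.787 cpm in all other libraries. The difference was 4.14 (SE 0.78, adjusted p = 3.86e-04), and siTHUMPD3 replicate 3 was the highest library. TNFRSF9, the costimulatory receptor 4-1BB, was at 2.80 and 1.99 cpm in siControl and 9.91, 10.4 and 28.4 cpm in siTHUMPD3, with 0.228 to 2.46 cpm elsewhere (difference 3.09, SE 0.60). Without siTHUMPD3 replicate 3 the difference was 3.38 for ICAM1 and 2.40 for TNFRSF9. TNFRSF9 met the rule in 15 of 24 alternative settings. Requiring 10 counts in every library removed it before the test. It was lost by DESeq2, with the replicate block, without a filter, with 10 counts required in every library, and without any 1 of replicates 1 and 3 of sh1Control, replicate 1 of shD3#1, replicate 2 of siControl and replicate 3 of siTHUMPD3.

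The other 8 belong to no single pathway. SCN2A, a neuronal sodium channel, had the highest difference (4.74, SE 0.79), at 0.224 and 0.0711 cpm in siControl and 7.25, 5.45 and 4.43 cpm in siTHUMPD3. DNAI3, an axonemal dynein chain, was at 0.951 and 0.924 cpm in siControl, 11.6, 11.4 and 10.8 cpm in siTHUMPD3 and 0.425 to 1.08 cpm in the other libraries (3.35, SE 0.32). SERPINF1 (3.49), which encodes the anti-angiogenic factor PEDF, and CHGA (chromogranin A, 3.31) had levels of 4.99 to 6.14 and 2.99 to 4.63 cpm in siTHUMPD3 with at most 1.2 cpm elsewhere. ALOX5 (3.05), MMP2 (2.71), ITGB3 (2.7) and UNC5B (2.40), a netrin receptor, completed the 10. For UNC5B, siControl at 0.727 and 0.497 cpm was below the shRNA controls at 1.42 to 2.97 cpm, and siTHUMPD3 at 3.51 to 3.81 cpm lay only 0.59 (log2) above the shRNA knockdowns. Single libraries moved several of these values. Without siControl replicate 1, SCN2A was at 5.79, CHGA at 3.99 and MMP2 at 2.03, and without siControl replicate 2 MMP2 was at 3.63. ITGB3 was at 1.87 without siTHUMPD3 replicate 3. ITGB3 and MMP2 did not meet the rule without siTHUMPD3 replicate 3, which held 8.70 cpm of ITGB3 against 2.80 and 2.52 cpm in the other 2 libraries.

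Extracellular matrix proteins were higher in 25 of 71 (35.2%) and lower in 1. Their siRNA effect had a median of 0.67, against 0.28 with shD3#1 and 0.16 with shD3#4. By themselves, the siRNA raised 38 of the 71 and lowered 2, shD3#1 raised 29 and lowered 16, and shD3#4 raised 16 and lowered 10. Over all genes tested the raised shares were 14.6%, 13.1% and 6.54%, and the lowered ones 10.1%, 14.2% and 4.15%. The median difference of the list was 0.47, and 0.36 to 0.57 over the alternatives. Specific were 3 members, COL6A2 (2.35, or 1.72 without siTHUMPD3 replicate 3), FBLN2 (2.46) and NID2 (1.09, not called without siControl replicate 2). Without siTHUMPD3 replicate 3 the count was 0. COL6A2 and FBLN2 each met the rule in 18 of 24 alternative settings and NID2 in 11. Matrix proteases, inhibitors and cross-linking enzymes were higher in 15 of 51 (29.4%; 9 without siControl replicate 1) and lower in 6 (11.8%; 3 without siControl replicate 2). MMP2, MMP7 (1.46), P4HA2 (0.93) and ADAM8 (0.76, not called without siControl replicate 1) were specific, of which 1 in all was left without siTHUMPD3 replicate 3 and 2 without sh4Control replicate 3 or siControl replicate 1. P4HA2 met the rule in 16 of 24 alternative settings and ADAM8 in 12. The protease matrilysin, MMP7, was at 98.2 and 78.3 cpm in siControl and 306, 291 and 145 cpm in siTHUMPD3, replicate 3 being the lowest, and at 33.3 to 67.8 cpm elsewhere. Integrins and adhesion genes were higher in 9 of 54 (16.7%) and lower in 5 (9.26%, near the 7.12% of all genes; 3 without siControl replicate 1, 8 without siTHUMPD3 replicate 3). By themselves, the siRNA raised 22 of the 54 and lowered 1, shD3#1 raised 23 and lowered 7, and shD3#4 raised 8 and lowered 0. The deep shD3#1 libraries raised 23 of 52 and lowered 5. ICAM1, ITGB3, CDH3 (P-cadherin, 2.55) and DDR2 (a collagen receptor, 1.5) were the specific members, DDR2 in 15 of 24 alternative settings.

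Metabolic and stress lists held fewer calls, to be read against 9.43% higher and 7.12% lower over all genes. ATF4 targets were higher in 8 of 46 (17.4%; 5 without siControl replicate 1) and lower in 3 (6.52%; 6 without siTHUMPD3 replicate 3), and 4 were specific. Serine and proline synthesis enzymes were among the lower ones. PHGDH, the first enzyme of serine synthesis, was at 29.3 cpm in both siControl libraries and 5.85, 7.73 and 9.82 cpm in siTHUMPD3, against 17.5 to 32.0 cpm in the shRNA knockdowns (difference -1.49, SE 0.20). PYCR1 (proline synthesis, -1.21) and SHMT2 (mitochondrial serine to glycine conversion, -0.72) were also lower. DDIT3, which encodes the stress factor CHOP, was higher (1.29, SE 0.18), at 7.61 and 5.26 cpm in siControl and 15.3, 16.3 and 19.95 cpm in siTHUMPD3.

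HMOX1, the haem oxygenase and an NRF2 target, was at 59.1 and 80.4 cpm in siControl and 180, 184 and 196 cpm in siTHUMPD3, with 60.3 to 88.4 cpm elsewhere (difference 1.43, SE 0.11, adjusted p = 3.56e-09). It was the specific member of a list with 3 higher (7.32%) and 2 lower (4.88%) of 41, under the shares over all genes of 9.43% and 7.12%. Lysosome and autophagy genes were higher in 11 of 64 (17.2%) and lower in 2 (3.12%). The autophagy receptor OPTN was specific, at 49.0 and 38.1 cpm in siControl, 106, 122 and 129 cpm in siTHUMPD3 and 22.7 to 32.7 cpm elsewhere (1.55, SE 0.13), as was WIPI1 (1.17). Cholesterol synthesis and uptake had 5 higher (18.5%; 3 without shD3#1 replicate 3 or siTHUMPD3 replicate 3, 2 without siControl replicate 2) and 2 lower (7.41%) of 27, with 13 members lowered by shD3#1 and 3 by the siRNA. Fatty acid synthesis had 3 higher (14.3%; 1 without siTHUMPD3 replicate 3) and 0 lower of 21, FADS3 (1.54) being specific. Apoptosis regulators had 5 higher (15.6%) and 1 lower (3.12%) of 32, and CFLAR (0.84), CASP10 (0.97) and BCL2A1 (2.11, or 1.37 without siTHUMPD3 replicate 3) were specific. BCL2A1 met the rule in 14 of 24 alternative settings.

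Lists of translation, mitochondria and endoplasmic reticulum folding are to be read against 9.43% higher and 7.12% lower over all genes. Cytosolic ribosomal proteins had 0 higher and 3 lower (3.75%) of 80, although shD3#1 raised 23 of them and shD3#4 lowered 27. Against shD3#1 alone 47 of the 80 were lower with the siRNA, and in the deep libraries the same hairpin lowered 23 of 78, opposite to its direction in the first libraries. Ribosome biogenesis had 0 higher and 2 lower (2.53%) of 79, and mitochondrial ribosomal proteins 1 (1.35%) and 2 (2.7%) of 74. Endoplasmic reticulum folding genes had 0 higher and 2 lower (5.88%) of 34, the latter near the share over all genes. tRNA modification enzymes, the class of THUMPD3 itself, had 0 higher and 6 lower (8.0%, near the 7.12% of all genes) of 75, among them CTU2, a tRNA thiolation factor (-0.90, SE 0.13). Their median difference was -0.23. Of the 13 mitochondrially encoded mRNAs, edgeR, DESeq2 and voom each called 0 higher and 0 lower, with 3 higher and 0 lower at an unadjusted p below 0.05. In the other lists with a count of 0 in 1 direction, DESeq2 and voom also gave 0 in that direction, and 0 to 5 members per list reached an unadjusted p below 0.05 there. Against 9.43% higher and 7.12% lower over all genes, TGF-beta and epithelial-mesenchymal transition had 11 higher (27.5%) and 3 lower (7.5%) of 40. YAP targets had 6 (16.7%) and 3 (8.33%) of 36, and hypoxia and glycolysis 7 (21.2%) and 1 (3.03%) of 33. AP-1 genes had 6 higher (17.6%, or 2 genes without siControl replicate 2 and 3 without siTHUMPD3 replicate 3) and 2 lower (5.88%) of 34. Endodermal genes had 4 higher (12.5%, or 8 genes without siTHUMPD3 replicate 3) and 1 lower (3.12%) of 32, and keratins 2 higher (10.0%) and 0 lower of 20. The lower shares of TGF-beta and YAP genes and the higher share of keratins were near those of all genes.

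**Figure D3:**
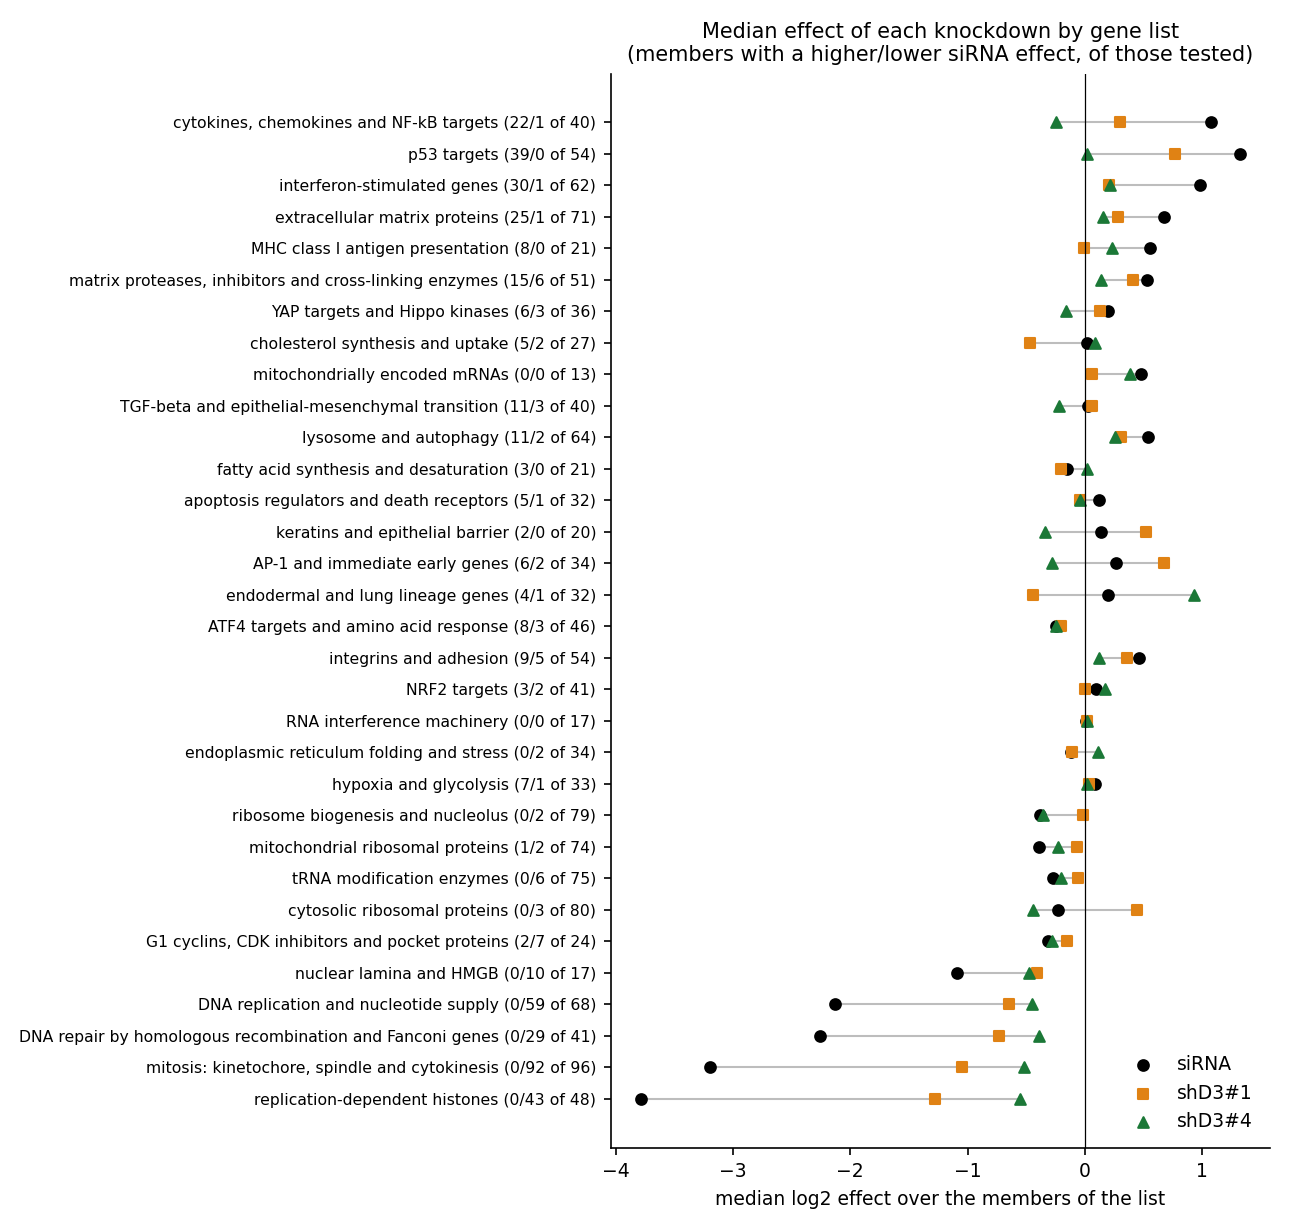
Median log2 effect over the tested members of each of the 32 gene lists (x axis) for the siRNA (circles), shD3#1 (squares) and shD3#4 (triangles), ordered by the median difference, with the members called higher and lower in the difference after each name. The siRNA medians of the histone, mitosis, repair and replication lists lie between -3.78 and -2.13, well to the left of both shRNAs, and those of the p53, cytokine and interferon lists between 0.98 and 1.32, to the right of both.

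In a few genes the siRNA and both shRNAs were called in opposite directions, 6 among the higher and 7 among the lower genes. TRIM67, a ubiquitin ligase, rose with the siRNA (1.01) and fell with shD3#1 (-3.70) and shD3#4 (-0.84), for a difference of 3.28 (SE 0.38). The shD3#1 libraries held 0.260, 0.258 and 0.00 cpm against 2.75, 3.12 and 2.18 cpm in sh1Control. CRMP1 (2.60), RTN4RL1 (2.10, or 2.71 without siControl replicate 2) and CXCL1 behaved likewise. In the other direction SLITRK6, a neuronal surface protein, was at 4.53 and 3.55 cpm in siControl and 2.80, 3.05 and 2.09 cpm in siTHUMPD3, but at 24.5, 23.9 and 29.7 cpm in shD3#1 against 3.42 to 4.36 cpm in its control (difference -2.50, SE 0.26). PLCXD3 (-2.38), SCARA5 (-2.15) and the aquaporin AQP3 (-1.97, or -1.23 without siControl replicate 1) were the other 3 of the 4 lowest. The complement component C3 rose with the siRNA (2.93) and shD3#4 (1.46) and fell with shD3#1 (-2.92). It was at 41.3 and 31.1 cpm in siControl and 304, 311 and 216 cpm in siTHUMPD3, and the difference was 3.66 (SE 0.20, adjusted p = 3.75e-11).

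The deep shD3#1 libraries gave a look at the specific genes in samples that took no part in choosing them, although with 1 of the same shRNAs. The rule already required no call with this shRNA in the first libraries. Few calls in the same direction and medians near 0 therefore follow in part from the rule and are a description. Of 14644 genes tested in both tables, 2067 (14.1%) were called higher and 1932 (13.2%) lower there. Of the 322 higher specific genes among them, 17 (5.28%) were called higher and 53 (16.5%) lower, with a median effect of -0.06. Of the 259 lower ones, 14 (5.41%) were called lower and 15 (5.79%) higher, with a median of -0.05. Both medians were close to the -0.01 of all genes. TK1, at 62.4, 67.1 and 69.4 cpm against 71.3, 68.9 and 74.2 cpm, overlapped its control there, unlike in the first libraries. CDC25A, at 18.1, 20.97 and 18.2 cpm against 16.6, 17.6 and 16.1 cpm, again stood near its control. FAM111B had an effect of 0.01.

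Some specific genes were called in the same direction in the deep libraries, so their shD3#1 effect was called in one set of libraries and not in the other. They include TXNIP (deep effect 1.39), ICAM1 (0.85), TNFRSF9 (1.11), IFIH1 (0.85), IGFBP7 (0.93) and SULF2 (0.61) among the higher, and PHGDH (-1.21) and H2AZ1 (-0.83) among the lower genes. ICAM1 had 0.578, 0.516 and 0.487 cpm in the deep controls and 0.652, 1.13 and 1.08 cpm in the deep knockdown, without overlap. Others were called in the opposite direction, SCN2A with a deep effect of -3.10, ITGB3 of -1.73, HMOX1 of -1.27, MMP2 of -0.88 and SERPINF1 of -0.84. Levels in the deep table come from another count table and were not compared with the first by any test.

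**Figure D4:**
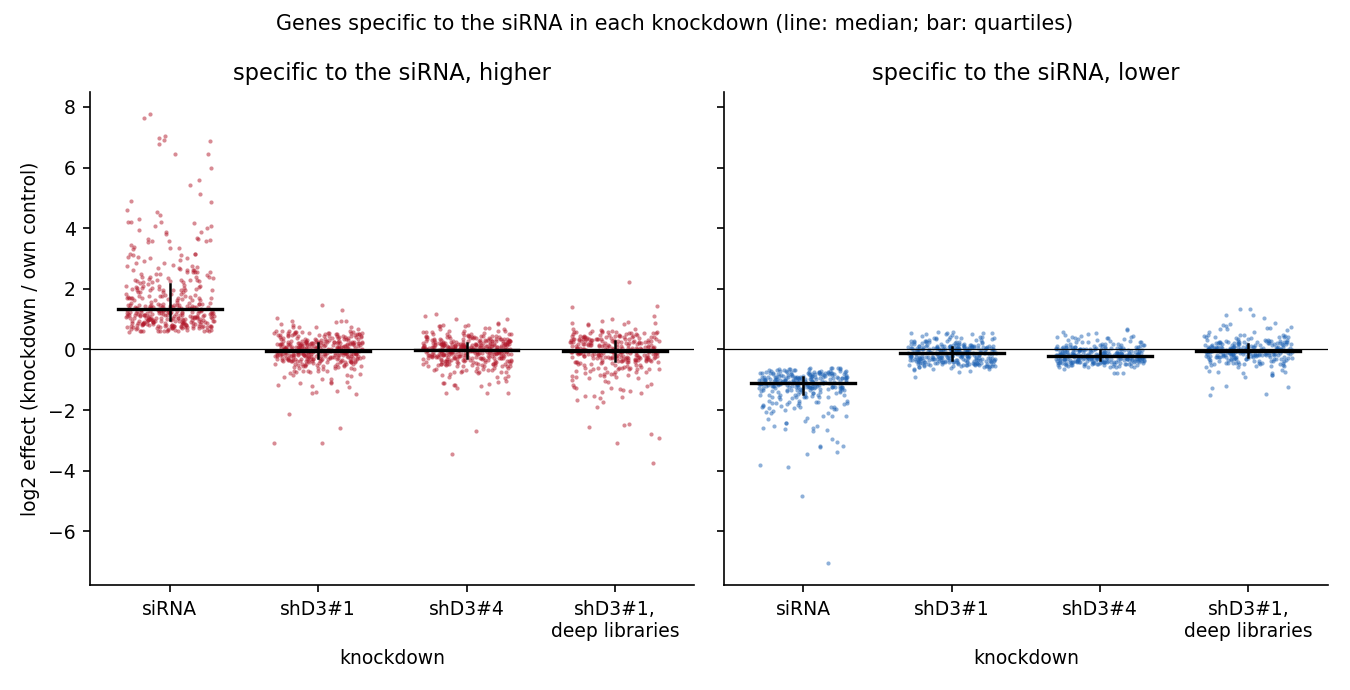
Log2 effect (y axis) of the 380 higher (left) and 290 lower (right) genes specific to the siRNA in each knockdown (x axis), with the median as a line and the quartiles as a bar. The siRNA medians are 1.35 and -1.12 by the rule, and those in the deep shD3#1 libraries are -0.06 and -0.05. The rule did not use the deep libraries but required no call with the same shRNA in the first ones.

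Promoters were found for 256 of the higher and 221 of the lower specific genes. An E2F word was in 28.5% of the lower and 10.9% of the higher ones, against 14.2% of the 12187 tested genes with a promoter and 9.33% of all 27305 promoters. The replication list, the source of 11 specific genes, held the E2F word in 57.9% of 57 promoters. A CHR word was in 73.2% of the 82 mitosis promoters and 17.6% of the lower specific ones. It was in 16.6% of the genes tested with a promoter and 24.3% of all promoters, so the lower specific share was near that of the genes tested. NF-kB words were in 44.8% of the 29 cytokine promoters and 7.42% of the higher specific ones, against 4.59% of all promoters. Interferon-stimulated and p53 target promoters, whose genes were mostly higher or not called, held an NF-kB word in 8.51% and 7.14% and an E2F word in 21.3% and 19.0%. Both E2F shares were above the 14.2% of the genes tested. TNFRSF9 also holds a CHR word at 77. A match describes letters in this window and is not evidence of binding.

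**Figure D5:**
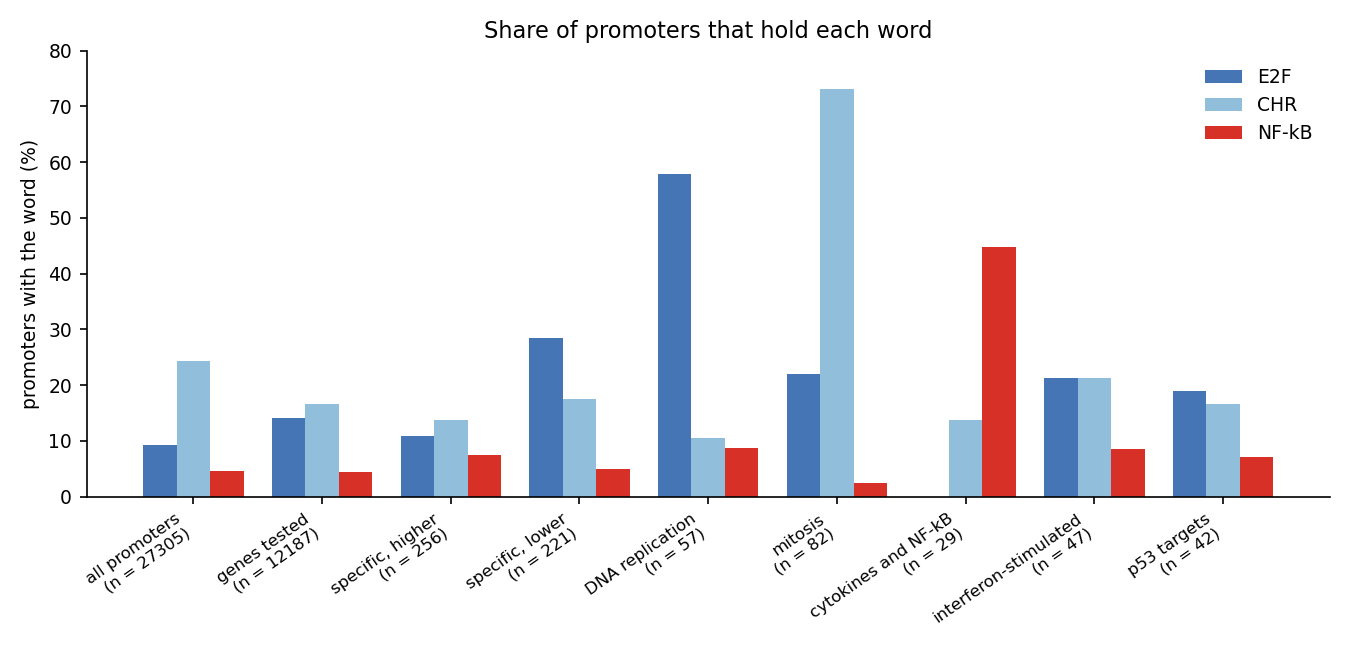
Share of promoters (bars from 0, in percent) that hold an E2F, CHR or NF-kB word, for all promoters, the genes tested, the specific genes and 5 gene lists, with the number of promoters under each name. The tallest bars are the CHR word in mitosis genes (73.2%), the E2F word in replication genes (57.9%) and the NF-kB word in cytokine genes (44.8%).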

How the data were processed

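Gene expression in A549 cells was measured by RNA-sequencing of rRNA-depleted RNA in directional libraries. Per the labels, the submitters' processing notes name Trimmomatic 0.40, STAR 2.7.10a and GRCh38.p14. The deposited values are counts of reads per gene, without normalisation by the authors. No column was left out. Library totals are 9854294 to 22101059 counts, and precision is that of the spread between libraries.

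A mean was fitted for each of the 6 groups to the 17 libraries (R 4.3.3, edgeR 4.0.16), after filterByExpr at its defaults and scaling by TMM. The quasi-likelihood test was applied to the contrasts, with Benjamini-Hochberg adjustment over 18672 genes. The deep libraries were fitted apart and matched by gene symbol. cpm values use TMM-scaled totals. SE is the log2 value divided by the square root of F. Symbols and positions came from GENCODE release 44, which held 61757 of 61806 genes.

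Alternatives included DESeq2 1.42.0, voom of limma 3.58.1 and leaving out each library. Named were the THUMPD3 family, the 10 highest and 10 lowest specific protein-coding genes (mean of at least 1 cpm, no group at 0, no overlap of siTHUMPD3 and siControl), the 4 highest and 4 lowest opposite genes, and the extremes and fixed members of 32 lists. All specific members of a list, and the genes named from the deep libraries, were named after their values were seen, as was CANX. Some genes are not reported here. The contrast and the lists were chosen with earlier results of these data known.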

Additional observations from a re-analysis of the deposited data

Results flagged for a closer look

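The siRNA effect and the mean shRNA effect differed, by the test of the difference itself, in 1760 genes that were higher and 1329 that were lower with the siRNA. Of these, 380 higher and 290 lower genes were specific to the siRNA. A further pattern was a siRNA effect that lay above 1 shRNA effect and below the other, both differences called, in 12 genes, among them PADI3, CPA4, DAPK1, FOSL1, CPT1A, SLC4A8, RHOV, CA12, MYOCD, NPTX1 and NOTCH3. In these the mean shRNA effect stood for neither shRNA. CPA4 was at 6.65 ± 1.27 cpm (SD, n = 2) in siControl and 54.7 ± 1.12 cpm (SD, n = 3) in siTHUMPD3, but at 138 ± 11.01 cpm in shD3#1 and 5.09 ± 1.13 cpm in shD3#4 (SD, n = 3 each). NPTX1 had effects of -0.45 with the siRNA, -4.22 with shD3#1 and 0.73 with shD3#4.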

How the results depend on the processing

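Of the counts of called genes, 214 values under the alternatives were within 1.5 times those reported. A stricter requirement moved the others. When the difference was tested against the 1.5-fold threshold itself (glmTreat), 657 genes were higher and 594 lower, 1193 and 927 against shD3#1, 715 and 685 against shD3#4, and 165 and 174 were specific. Only 205 of these specific genes were among those reported. With a log2 threshold of 1, 1059 were higher and 698 lower, 1608 and 1033 against shD3#1, and 1054 and 837 against shD3#4. Specific were then 269 and 237, of which 315 in all were among those reported. A stricter threshold also makes a call with an shRNA rarer, so these specific genes are not a subset of those reported. Leaving out 1 library at a time gave 1403 to 1744 higher and 1296 to 1466 lower genes, 2242 to 2583 and 2063 to 2414 against shD3#1, 1442 to 1740 and 1399 to 1688 against shD3#4, and 308 to 377 and 268 to 347 specific genes, a lone siControl library being assumed to vary like the other groups. Of the specific genes, 103 higher and 152 lower met the rule in all 24 alternatives. Neither glmTreat nor the log2 threshold of 1 is among these 24. DESeq2 called 1528 and 1313 genes, and voom 1464 and 1215. Same-numbered libraries did not deviate together (correlations of -0.14 to 0.16), and with a replicate block 1676 genes were higher and 1327 lower. Among 269 named gene results, 6195 values kept direction and call, 190 lost the call and 20 gained it. Reversed were values of genes that had not been called. Leaving out 1 library at a time moved THUMPD2 between -0.33 (without siControl replicate 1) and 0.066 (without siControl replicate 2), TRMT11 between -0.11 (without siTHUMPD3 replicate 3) and 0.089 (without siTHUMPD3 replicate 2), CDKN1B between -0.29 (without siControl replicate 2) and 0.050 (without siControl replicate 1), and DICER1 between -0.033 (without siTHUMPD3 replicate 3) and 0.12 (without siTHUMPD3 replicate 2). The TRMT11 log2 difference was also -0.00620 without mitochondrial genes, -0.014 with the replicate block and -0.017 without a filter. The cause of these changes was not tested. When at least 10 counts were required in every library, MMP2 was the only one of the 10 highest named genes that was tested, and it stayed specific. SCN2A, ICAM1, SERPINF1, DNAI3, CHGA, TNFRSF9, ALOX5, ITGB3 and UNC5B had fewer counts than this in at least 1 library. They were therefore not tested under this setting, which says nothing on their specificity.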
